A study of Mus musculus with 2 samples.

Results

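The genes described here are the Rab GTPases and the Tbc1d and Sgsm genes, many of which encode TBC-domain proteins that inactivate Rabs. They were measured in pools of RAW264.7 clones, a mouse macrophage-like line, that carried the retroviral vector MSCV encoding miR-155 or the empty MSCV vector. Members were taken by name from the platform annotation: symbols of Rab plus a number with an optional letter (59 genes), and symbols that begin Tbc1d or Sgsm (34 genes), 93 of the 18193 genes with a probeset of their own. Each gene was read from the probeset with the highest mean log2 signal, so measured values chose the probesets, though not the genes. Puromycin at 7 µg/ml was used for selection in both arms, single clones were then raised by limiting dilution, and the RNA of 5 clones per arm was pooled and hybridised to 1 Affymetrix array per arm. Each pool stands for its 5 clones only, and the spread between clones was not measured. With 1 array per group there is no test and no p-value, and every value below describes these 2 arrays.

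A Rab GTPase cycles between a GTP-bound form, which sits on a membrane and recruits effectors for budding, transport and fusion of vesicles, and a GDP-bound form that is held in the cytosol. Guanine nucleotide exchange factors (GEFs) load it with GTP, and GTPase-activating proteins (GAPs), most of which carry a TBC domain, speed up GTP hydrolysis and end its action. In macrophages this machinery runs the uptake and maturation of phagosomes, the recycling of receptors and the release of cytokines and lysosomal enzymes. The Tbc1d and Sgsm genes are called GAPs below by name alone, and GAP activity was not measured.

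The arms differ in a single designed sequence, the microRNA carried by the vector, and it is shown because miR-155 selects its target mRNAs through its seed. The mature strand is given as RefSeq annotates it on GRCm38.p6 at chr16:84714143-84714165, plus strand, 5′ to 3′, with the seed, bases 2 to 8, in capitals.
mmu-miR-155-5p: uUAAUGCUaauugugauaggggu
The arrays measure mRNA and not this strand, and target sites in the members' transcripts were not analysed here.

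The labelled cell type was checked against its markers. Of 10 macrophage markers, 9 read above the signal floor of 25.8 on both arrays, with Csf1r, the receptor for macrophage colony-stimulating factor, at 5095 in the miR-155 array and 6040 in the empty-vector array. Mrc1, the mannose receptor, was the exception, at 12.9 in the miR-155 array and 10.3 in the empty-vector array. Further probesets of Csf1r gave log2 ratios of −0.99 and −0.96. Of the other markers, Cd14, the lipopolysaccharide co-receptor, was 2.40-fold and Fcer1g, the Fc receptor gamma chain, 1.63-fold higher with miR-155, and Adgre1, which encodes F4/80, was 1.63-fold lower. The part of these differences in the results below was not tested. The summed signal of the 10 was 26498 in the miR-155 array and 25143 in the empty-vector array. Of 17 markers of B cells, T and NK cells, stroma and erythroid cells, 2 lay just above the floor on the miR-155 array, Cd8a at 26.5 and Epor at 27.2, and none on the empty-vector array. In pooled RNA, fewer cells or clones expressing a gene and less of its RNA per cell cannot be told apart.

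Most members were measurable. Of 59 Rab GTPases, 42 (71.2%) lay in the upper 50% of mean signal, as did 26 of the 34 Tbc1d and Sgsm genes (76.5%). That filter kept 9097 genes in all, and the word kept is used for it below. Just inside the limit were Rab27b, with signals of 25.2 in the miR-155 array and 27.5 in the empty-vector array, and Rab38, with 32.7 in the miR-155 array and 22.0 in the empty-vector array. Just outside were Rab20 (miR-155 40.3, empty vector 15.6) and Tbc1d2 (miR-155 26.5, empty vector 22.8). Of the kept members, 4 GTPases (Rab19, Rab4a, Rab27b and Rab38) had a reading below the floor on 1 array, and for these the signals are given with no ratio. A log2 ratio below is always that of miR-155 over empty vector, so a negative one means a lower signal with miR-155. The local SD beside it is the robust SD of that ratio among the 500 genes nearest in signal, which describes scatter between the arrays and no biological replication.

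Among the Rab GTPases a few genes stood out and most read alike on both arrays. At the 1.5-fold threshold, 2 of the 42 kept GTPases read higher in the miR-155 array, against 5.32% of all genes kept, and 3 read lower, against 5.99%. These are 4.76% and 7.14% of the GTPases, close to the background, so the counts are no result about the family. They turned under the 3 other scalings, with 4 GTPases higher and 2 lower in each. Under those scalings the percentages over all genes kept were 6.19% to 7.64% higher and 4.13% to 5.11% lower. In the signals as deposited the genes past 1.5-fold were Rab31, Rab34 and Rab4a on the lower side and Rab27a and Rab19 on the higher side. Of these, Rab4a and Rab19 had 1 reading below the floor and passed the filter through the other array. Their place in the counts is therefore no support for a difference. The median log2 ratio of the 42 was −0.02 and that of all genes kept −0.05, and the GTPase median turned positive, at 0.03 to 0.10, under each of the 3 other scalings. At 2-fold, 1 GTPase was higher, against 1.92% of all genes kept, and 0 were lower, against 1.43%. The 1 higher gene was Rab19, whose empty-vector reading lay below the floor.

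**Figure D1:**
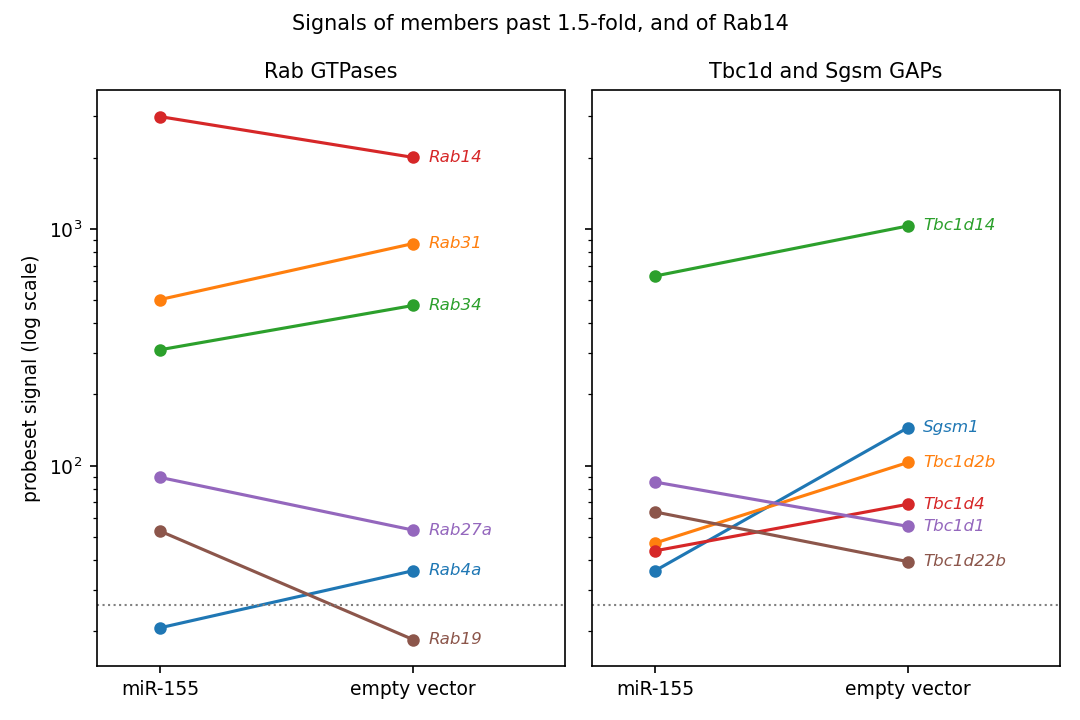
Probeset signal (log scale) on the miR-155 array (left) and the empty-vector array (right) for each kept member at least 1.5-fold different, and for Rab14, with 1 point per array. The dotted line is the signal floor of 25.8. Lines rising to the right, such as those of Rab31, Rab34 and Sgsm1, mark genes lower in the miR-155 array, and Rab19 and Rab4a each cross the floor.

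The clearest difference among the GTPases was that of Rab31, an early endosomal and trans-Golgi Rab of the Rab5 group. Its signal was 503.5 in the miR-155 array and 867 in the empty-vector array. That is 1.72-fold lower with miR-155 (log2 ratio −0.78, local SD 0.19). A further probeset of the gene had 148 in the miR-155 array and 273 in the empty-vector array, a log2 ratio of −0.88, so both probesets of Rab31 gave the same direction and nearly the same size. Rab34, which acts in the positioning of lysosomes, the maturation of phagosomes and the formation of cilia, had 309 in the miR-155 array and 475 in the empty-vector array (log2 ratio −0.62, or 1.54-fold lower, with a local SD of 0.21). The second probeset of Rab34 had 233 in the miR-155 array and 355 in the empty-vector array, a log2 ratio of −0.61. Rab31 and Rab34 were the only kept members past 1.5-fold for which a further probeset with both readings above the floor also passed it in the same direction. For Rab34 this held in the signals as deposited, while its ratio fell just short of 1.5-fold, at −0.58 to −0.50, under each of the 3 other scalings and at −0.55 with an offset of 50. The ratio of Rab31 stayed past 1.5-fold in those settings, at −0.74 to −0.66.

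The windows around the annotated starts of Rab31 and Rab34 are shown because in the signals as deposited a difference past 1.5-fold was shared by 2 probesets in these genes, just short of it for Rab34 under the other scalings. Each holds 250 bases before to 50 after a start annotated by RefSeq on GRCm38.p6, 5′ to 3′ on the strand of the gene. The Rab31 window is chr17:65772703-65773002 on the minus strand. The Rab34 windows are chr11:78188177-78188476 and chr11:78188498-78188797 on the plus strand, for the upstream and the downstream start. Capitals mark matches to the motifs searched on both strands: the GC box GGGCGG, the AP-1 site TGANTCA, the E-box CACGTG, the PU.1-type site GAGGAAGT and the interferon-response core GAAANNGAA, and no match overlapped another.
Rab31: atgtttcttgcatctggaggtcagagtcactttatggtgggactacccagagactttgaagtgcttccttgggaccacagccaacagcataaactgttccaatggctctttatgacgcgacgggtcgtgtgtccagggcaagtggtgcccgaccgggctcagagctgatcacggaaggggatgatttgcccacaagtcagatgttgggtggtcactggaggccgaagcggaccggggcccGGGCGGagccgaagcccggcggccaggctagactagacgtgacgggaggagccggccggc
Rab34 upstream: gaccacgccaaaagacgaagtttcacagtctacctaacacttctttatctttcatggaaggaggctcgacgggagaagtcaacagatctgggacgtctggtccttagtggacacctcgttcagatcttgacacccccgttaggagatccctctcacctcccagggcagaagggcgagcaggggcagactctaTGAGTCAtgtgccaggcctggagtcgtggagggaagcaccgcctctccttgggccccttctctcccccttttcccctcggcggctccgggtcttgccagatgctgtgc
Rab34 downstream: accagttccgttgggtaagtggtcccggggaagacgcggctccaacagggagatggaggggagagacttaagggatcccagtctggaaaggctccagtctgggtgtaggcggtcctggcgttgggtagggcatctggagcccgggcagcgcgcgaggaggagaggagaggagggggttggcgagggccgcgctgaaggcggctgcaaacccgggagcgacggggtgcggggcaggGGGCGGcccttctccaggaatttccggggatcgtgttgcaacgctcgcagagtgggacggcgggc
The Rab31 window and the downstream Rab34 window each held 1 GC box, a motif present in 35.7% of the 32851 windows of the whole table. The upstream Rab34 window held 1 AP-1 match, found in 7.81% of all windows. The windows of Rab31 and Rab34 shared only the GC box. A match is a run of letters and not a shown binding site.

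Windows were available for 75 of the 93 members, among them 35 kept GTPases and 21 kept GAPs. A GC box stood in at least 1 window of 27 of the 35 GTPases and 15 of the 21 GAPs, against 38.2% of all 27025 genes in the table. The E-box was found in 7 of 21 GAPs (Tbc1d5, Tbc1d7, Tbc1d13, Tbc1d14, Tbc1d15, Tbc1d20 and Tbc1d24) and in 5 of 35 GTPases (Rab5a, Rab21, Rab23, Rab24 and Rab27a), against 8.09% of all genes. The AP-1 motif was found in 2 genes of each kind, Rab15 and Rab34 among the GTPases and Sgsm1 and Tbc1d14 among the GAPs, against 8.97% of all genes. The PU.1-type site was found in Rab2b and Rab32 and in no GAP, against 3.69% of all genes. The interferon-response core was found in Rab19, Sgsm3, Tbc1d1 and Tbc1d2b, against 9.76% of all genes. The table holds every kind of gene, so these percentages are no matched comparison.

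Among Rabs of early and recycling endosomes, 13 of 16 were kept and 9 of these had a ratio below 0, against 58% of all genes kept. Their median log2 ratio was −0.15, with Rab31 and Rab4a past 1.5-fold on the lower side, against 5.99% of all genes kept, and none on the higher, against 5.32%. With counts this small the group cannot be set apart from the background. Rab5, the organiser of early endosomes, is encoded by 3 genes, which read −0.15 for Rab5c, 0.06 for Rab5a and −0.24 for Rab5b on the log2 ratio scale. Rab5b was dim, with 27.2 in the miR-155 array and 32.2 in the empty-vector array (local SD 0.61). A further probeset of Rab5b had 25.9 in the miR-155 array and 23.3, below the floor, in the empty-vector array. Rab11a and Rab11b, of slow recycling, were at −0.23 and −0.15, and Rab35, of fast recycling to the plasma membrane, at −0.31. Rab4b was at −0.06, while Rab4a, which also serves fast recycling, had signals of 20.7 in the miR-155 array and 36.1 in the empty-vector array. Its further probeset had 10.4 (miR-155) and 18.0 (empty vector), below the floor on both arrays. With the low reading of Rab4a raised to the floor the gene fell short of 1.5-fold. Rab21 (0.09), Rab22a (−0.18) and Rab15 (0.33, local SD 0.57) lay within 1.5-fold, although a further probeset of Rab22a gave −0.83, from signals of 26.3 in the miR-155 array and 46.7 in the empty-vector array.

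Rab14, which works between the trans-Golgi network and endosomes and on phagosomes, gave opposite answers by probeset. Its brightest probeset had 2979 in the miR-155 array and 2005 in the empty-vector array, a log2 ratio of 0.57 (local SD 0.13) that stopped short of 1.5-fold. Its 4 further probesets above the floor had ratios below 0, at −0.33 to −0.17, the brightest of them with 769 in the miR-155 array and 947 in the empty-vector array. The discordant probeset is of the kind whose probes are shared by more than 1 transcript. The direction for Rab14 therefore cannot be told from these arrays. Among the members past 1.5-fold, the brightest probesets of Rab4a, Sgsm1, Tbc1d1 and Tbc1d14 are of this shared kind too.

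**Figure D2:**
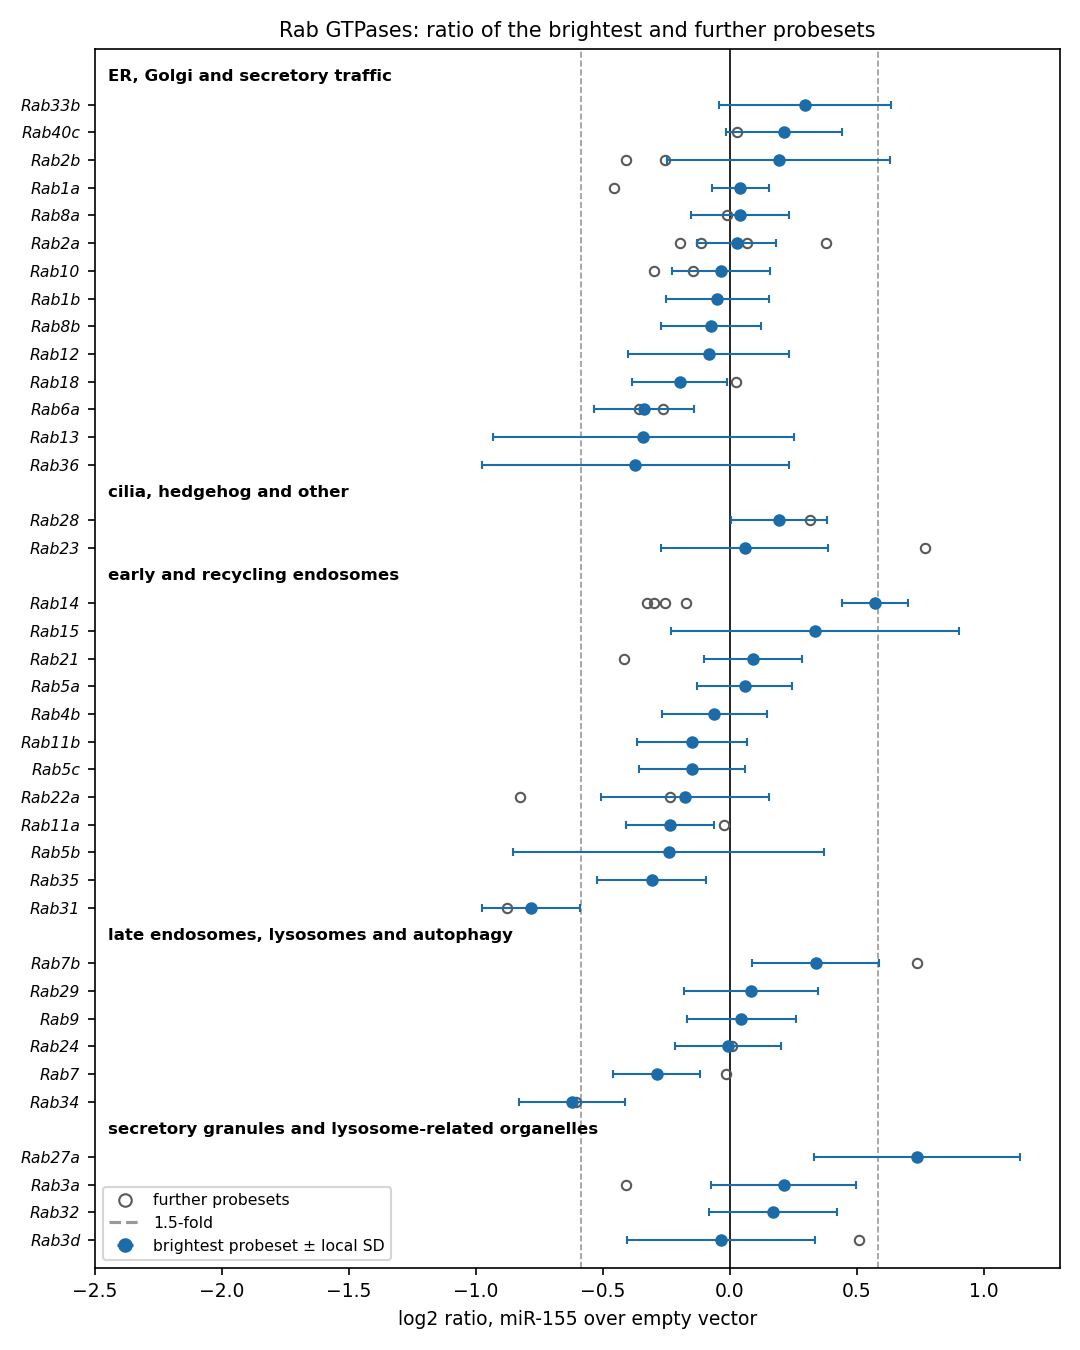
Log2 ratio of the miR-155 over the empty-vector signal for the 38 kept Rab GTPases with both readings above the floor, grouped by the membrane they serve. Filled points with bars are the brightest probeset ± local SD, open points are further probesets above the floor, and dashed lines mark 1.5-fold. Rab31 and Rab34 are the genes whose filled and open points lie together beyond the lower line, and the 4 open points of Rab14 lie on the other side of 0 from its filled point.

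Rabs of late endosomes, lysosomes and autophagy were kept in 6 of 10 cases, with 3 ratios on each side of 0, against 58% of all genes kept below 0. Rab34 was the only gene past 1.5-fold, on the lower side, against 5.99% of all genes kept lower and 5.32% higher. With 6 genes these counts are no result about the group. Rab7, which drives the fusion of late endosomes and phagosomes with lysosomes, had 850 in the miR-155 array and 1037 in the empty-vector array (log2 ratio −0.29, local SD 0.17), but its further probeset read −0.01. Rab7b, a lysosomal relative studied in Toll-like receptor signalling, went the other way. Its signal was 249 in the miR-155 array and 197 in the empty-vector array (log2 ratio 0.34, local SD 0.25). Another probeset had 242 (miR-155) and 145 (empty vector), a log2 ratio of 0.74. A dim probeset of Rab7b had 16.8 in the miR-155 array and 23.1 in the empty-vector array. Rab9, of transport from late endosomes to the Golgi, was at 0.05, Rab24 at −0.01 and Rab29 at 0.08.

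Rabs of secretory granules and lysosome-related organelles were kept in 6 of 11 cases. Rab27a, which docks secretory lysosomes and exosome-bearing endosomes at the plasma membrane, had 89.3 in the miR-155 array and 53.5 in the empty-vector array (1.67-fold higher, log2 ratio 0.74, local SD 0.41). Its 3 further probesets lay below the floor on both arrays, at 20.0 to 23.8 in the miR-155 array and 13.4 to 24.7 in the empty-vector array, so the difference rests on 1 probeset. Rab32, of phagosomes and melanosomes, read 0.17, and its relative Rab38 had 32.7 in the miR-155 array and 22.0 in the empty-vector array. Among Rabs of regulated exocytosis, Rab3a was at 0.21 and Rab3d at −0.04, and a further probeset of each gave −0.41 and 0.51, the opposite direction in both genes.

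Of 20 Rabs of the endoplasmic reticulum, the Golgi and the secretory route, 15 were kept. Of these, 14 lay within 1.5-fold, near the background of 8068 of the 9097 genes kept. Rab1a, needed for transport from the endoplasmic reticulum to the Golgi, had 2866 in the miR-155 array and 2786 in the empty-vector array (log2 ratio 0.04, local SD 0.11), with −0.45 in its further probeset above the floor. Rab1b was at −0.05, Rab2a at 0.03, Rab8a at 0.04, Rab8b at −0.08, Rab10 at −0.03 and Rab12 at −0.08. Rab6a, of transport within and from the Golgi, read −0.34 (local SD 0.20), with −0.36 and −0.26 in its further probesets, a small difference of like size in all 3. Rab18, of lipid droplets and the endoplasmic reticulum, was at −0.20, Rab2b at 0.19, Rab33b, a Golgi Rab that also serves autophagy, at 0.30, Rab40c at 0.21, and the dim Rab13 and Rab36 at −0.34 and −0.37 with local SDs of 0.59 and 0.61. Rab19 was the exception, with 53.0 in the miR-155 array and 18.5, below the floor, in the empty-vector array. It had a single probeset, and with the low reading raised to the floor it stayed past 1.5-fold. Rab23, a regulator of hedgehog signalling, and Rab28 were at 0.06 and 0.19, and a further probeset of Rab23 gave 0.77.

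The 17 GTPases not kept had signals of 1.07 to 40.3 in the miR-155 array and 0.97 to 24.9 in the empty-vector array. They were Rab3b, Rab3c, Rab6b, Rab9b, Rab17, Rab20, Rab25, Rab26, Rab30, Rab33a, Rab37, Rab39, Rab39b, Rab40b, Rab42, Rab43 and Rab44. None reached the floor on the empty-vector array and 2 did on the miR-155 array, Rab20, a Rab of phagosome maturation, at 40.3 and Rab43, of the Golgi, at 29.3. The empty-vector readings of these 2 genes were 15.6 and 12.1. Epithelial Rab17 and Rab25 and the neuronal Rab3c were in this dim group, and for such signals a ratio cannot be read.

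More GAPs read lower than higher in the signals as deposited, as did more of all genes kept. The counts past 1.5-fold depended on the scaling, and the distance from the GTPase median on the probesets used. Of the 26 kept Tbc1d and Sgsm genes, 18 had a ratio below 0, against 58% of all genes kept. With 26 genes, that count cannot be set apart from the background. The median log2 ratio was −0.21, against −0.05 for all genes kept. At 1.5-fold, 4 read lower (15.4%, against 5.99% of all genes kept) and 2 read higher (7.69%, against 5.32%). Under the 3 other scalings the counts turned, with 5 GAPs higher in each and 2 to 4 lower. Over all genes kept those scalings gave 6.19% to 7.64% higher and 4.13% to 5.11% lower. At 2-fold, Sgsm1 and Tbc1d2b were lower, against 1.43% of all genes kept, and no GAP was higher, against 1.92%. The median stayed below 0 under every alternative run, at −0.21 to −0.09. The GAPs were dimmer than the GTPases, with a median signal of 82.7 against 321, and dim probesets scatter more. Counted by distance instead, 3 of the 26 GAPs (Sgsm1, Tbc1d2b and Tbc1d14) lay 2 local SDs or more below the median of genes of like signal, against 4.52% of all genes kept, and 0 lay as far above it, against 5.45%. Of the 42 GTPases, 2 lay as far below (Rab31 and Rab34) and 2 as far above (Rab14 and Rab19), near the background. Rab19 is counted there with its empty-vector reading below the floor.

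**Figure D3:**
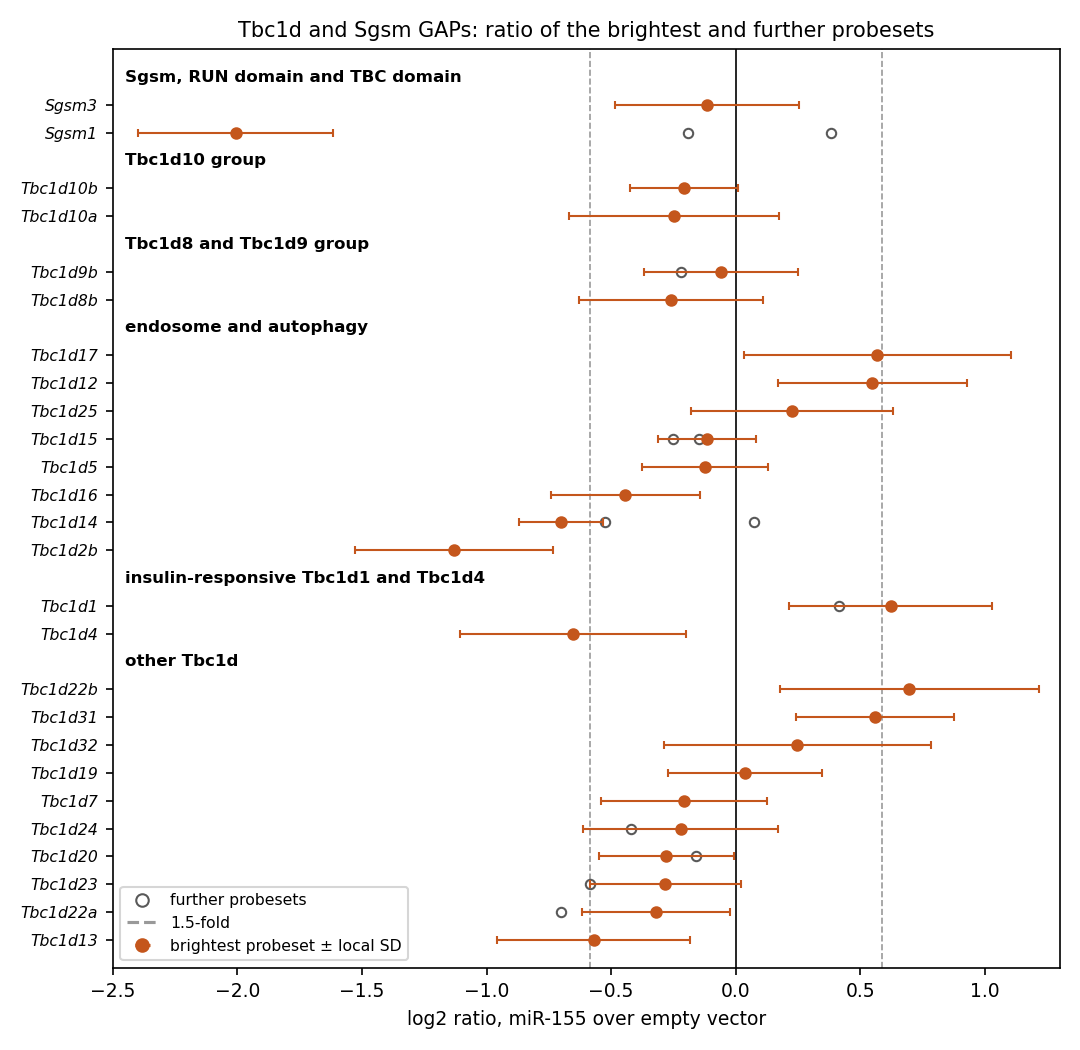
Log2 ratio of the miR-155 over the empty-vector signal for the 26 kept Tbc1d and Sgsm genes, grouped by family or site of action, drawn as for the GTPases: filled points with bars are the brightest probeset ± local SD and open points further probesets above the floor. The point of Sgsm1 at −2.01 lies far from both of its open points, and most other filled points lie left of 0.

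Sgsm1, a protein with a RUN and a TBC domain, had the largest ratio of any kept member but a divided set of probesets. The brightest one had 36.1 in the miR-155 array and 145 in the empty-vector array (4.02-fold lower, log2 ratio −2.01, local SD 0.39). A second probeset had 66.6 (miR-155) and 76.0 (empty vector), a log2 ratio of −0.19. The last had 50.8 (miR-155) and 39.0 (empty vector), a log2 ratio of 0.38. The probeset at −0.19 was designed from the same cDNA sequence as the one at −2.01, per the platform annotation. The difference for Sgsm1 thus rests on 1 probeset of 3, whose probes are of the shared kind described for Rab14. Sgsm3, a related protein known as a Rab5 GAP, read −0.12, and Sgsm2 was not kept, with 19.7 in the miR-155 array and 17.9 in the empty-vector array.

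GAPs of endosomes and autophagy included both other large differences. Tbc1d2b had 47.2 in the miR-155 array and 103 in the empty-vector array (2.19-fold lower, log2 ratio −1.13, local SD 0.40), in its only probeset. Tbc1d14, which binds ULK1 and holds back the formation of autophagosomes from recycling endosomes, had 633 in the miR-155 array and 1030 in the empty-vector array (1.63-fold lower, log2 ratio −0.70, local SD 0.17). A further probeset of Tbc1d14 had 87.5 (miR-155) and 126 (empty vector), a log2 ratio of −0.53. The remaining one, designed from the same cDNA sequence as the brightest, had 50.2 (miR-155) and 47.8 (empty vector), a log2 ratio of 0.07. The direction was thus shared by the brighter pair of its 3 probesets, the brightest again being of the shared kind. The Rab7 GAPs Tbc1d15 (−0.12, and −0.25 and −0.15 in further probesets) and Tbc1d5 (−0.12), a partner of retromer, were nearly level, and Tbc1d16, known to act on Rab4a, read −0.44 (local SD 0.30). On the higher side stood Tbc1d12 at 0.55, Tbc1d17 at 0.57 and Tbc1d25, a Rab33b GAP of autophagosomes, at 0.23, with local SDs of 0.38, 0.54 and 0.40.

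Tbc1d1 and Tbc1d4, paired GAPs of the insulin response that control glucose transporter vesicles, went opposite ways. Tbc1d1 had 85.4 in the miR-155 array and 55.5 in the empty-vector array (1.54-fold higher, log2 ratio 0.62, local SD 0.41), with 0.41 in its further probeset above the floor. A dim probeset of it had 24.8 (miR-155) and 38.3 (empty vector). Tbc1d4 had 43.8 in the miR-155 array and 68.8 in the empty-vector array (log2 ratio −0.65, or 1.57-fold lower, with a local SD of 0.45). Another probeset had 29.1 in the miR-155 array and 22.6, below the floor, in the empty-vector array. Neither ratio reached 2 local SDs.

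Among the remaining GAPs, Tbc1d22b was past 1.5-fold, with 63.8 in the miR-155 array and 39.4 in the empty-vector array (1.62-fold higher, log2 ratio 0.70, local SD 0.52). Its relative Tbc1d22a read −0.32, with −0.70 in a further probeset, and Tbc1d23, which tethers endosome-derived vesicles at the Golgi, read −0.28, with −0.58 in a further probeset. Tbc1d13, a Rab35 GAP, was just short of 1.5-fold at −0.57 (local SD 0.39), and the centrosomal Tbc1d31 on the other side at 0.56 (local SD 0.32). Tbc1d20, a Rab1 GAP, was at −0.28 with −0.16 in its further probeset, Tbc1d7, a subunit of the TSC complex, at −0.21, and Tbc1d24 at −0.22 with −0.42. Tbc1d10a, Tbc1d10b, Tbc1d8b, Tbc1d9b, Tbc1d19 and the ciliary Tbc1d32 lay between −0.26 and 0.25. The 8 genes not kept were Sgsm2, Tbc1d2, Tbc1d8, Tbc1d9, Tbc1d10c, Tbc1d21, Tbc1d30 and Tbc1d22bos. Tbc1d22bos is a long noncoding RNA that the naming rule takes in, not a GAP. Their signals were 0.82 to 26.5 in the miR-155 array and 0.95 to 22.8 in the empty-vector array. Tbc1d10c, a lymphocyte GAP, had 17.8 (miR-155) and 2.98 (empty vector), both below the floor.

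**Figure D4:**
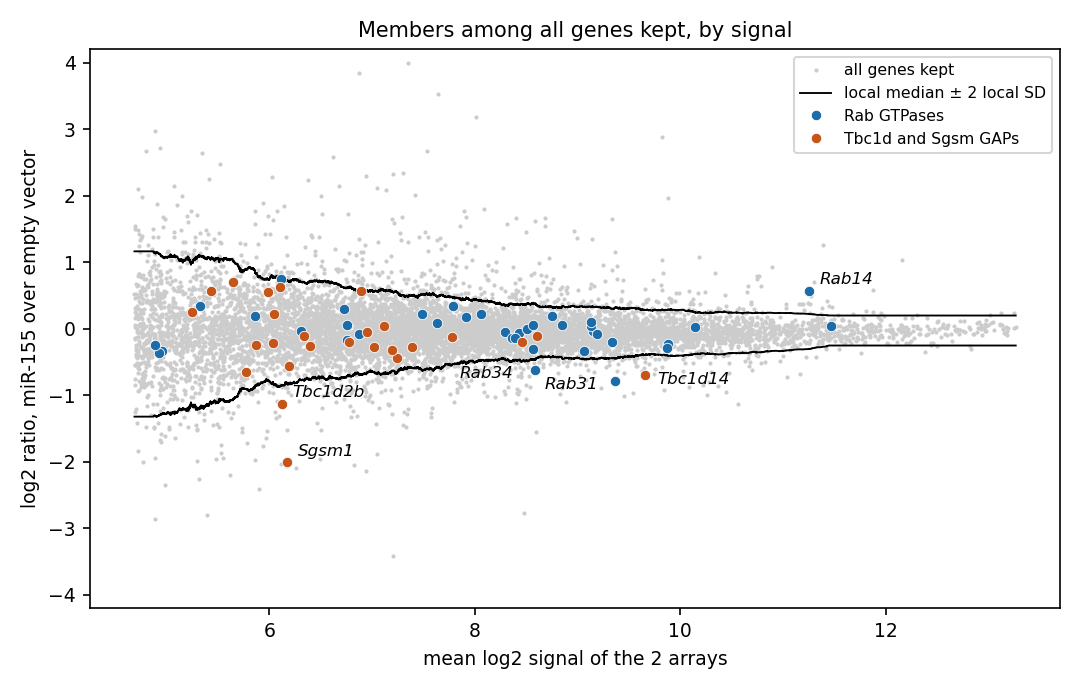
Log2 ratio of the miR-155 over the empty-vector signal against the mean log2 signal of the 2 arrays, with the 9097 genes kept in grey, the 38 kept GTPases and the 26 GAPs with both readings above the floor in colour, and lines at the local median ± 2 local SDs. Named points lie outside the lines: Rab14 above, and Rab31, Rab34, Tbc1d14, Tbc1d2b and Sgsm1 below.

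Set side by side, the GAP median lay 0.19 below the GTPase median on the log2 ratio scale. Relative to genes of like signal, 18 of 26 GAPs lay below the local median and 8 above it, while 18 of 42 GTPases lay below and 24 above. Over all genes kept, 4543 lay below and 4554 above. With counts this small, neither group can be set apart from that split. With 1 array per arm the difference between GAPs and GTPases has no test. It was not seen in the further probesets. The 12 further probesets of kept GAPs with both readings above the floor had a median log2 ratio of −0.21, with 9 below 0. The 31 of kept GTPases had a median of −0.20, with 22 below 0. Over all genes kept the median of 6143 such probesets was −0.07, and 60.0% were below 0. The difference between GAPs and GTPases was −0.01 there, against −0.19 with the brightest probesets, and −0.08 when all probesets of a gene were averaged.

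The members differed in how well their probesets concurred. Of 21 kept GTPases with a further probeset above the floor, the sign of the median further ratio matched that of the brightest probeset in 11 and differed in 10. Those 10 were Rab1a, Rab2a, Rab2b, Rab3a, Rab3d, Rab8a, Rab14, Rab18, Rab21 and Rab24. Apart from Rab14, their brightest probesets had ratios between −0.20 and 0.21, where a sign says little. Of the 10 only Rab14 lay 2 local SDs or more away from the genes of like signal. Their further probesets above the floor ranged from −0.45 (Rab1a) to 0.51 (Rab3d), with Rab8a and Rab24 close to 0. Of 9 kept GAPs with a further probeset above the floor, 8 had the same sign, and the exception was Sgsm1. Over all genes kept the sign matched in 64.7% of 3894. In size, the median absolute difference between further and brightest probesets was 0.27 for GTPases, 0.20 for GAPs and 0.19 over all genes kept.

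Known GAP and substrate pairs were read together. Of 21 pairs listed from reported GAP activities, 14 had both genes kept with all readings above the floor, and the ratios had the same sign in 9 and opposite signs in 5. Tbc1d13, Tbc1d10a and Tbc1d10b read lower together with Rab35, while Tbc1d25 and Rab33b both read higher, at 0.23 and 0.30. Tbc1d10a, at −0.25, and Rab27a, at 0.74, were the opposite pair with the widest gap apart from Tbc1d4 and Rab14, where the Rab14 direction is unsettled. Since pairs share genes and most ratios were small, these counts are a description only. The share of like signs over other pairs of genes was not computed, so 9 of 14 has no background beside it.

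Other parts of the Rab cycle were read from fixed lists. All 7 genes of GDP dissociation inhibition, escort and prenylation were kept and none reached 1.5-fold (median 0.03). Of the 9097 genes kept, 8068 did not reach it either. Gdi2, which extracts Rabs from membranes, had 3840 in the miR-155 array and 4471 in the empty-vector array (log2 ratio −0.22, local SD 0.11), with −0.34 to −0.11 in 5 further probesets, a small difference of 1 sign in all 6. Chm, the Rab escort protein, was at 0.15 with −0.46 in a further probeset, and Rabggtb, a subunit of the prenylating enzyme, at 0.15.

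Of 27 kept Rab GEFs, 3 read at least 1.5-fold higher (11.1%, against 5.32% of all genes kept) and 2 lower (7.41%, against 5.99%), with a median of 0.01. Dennd6a, a GEF for Rab14, had 79.7 in the miR-155 array and 216 in the empty-vector array (2.71-fold lower, log2 ratio −1.44, local SD 0.31), in its only probeset above the floor. Rgp1, a subunit of the Rab6 GEF, had 88.9 (miR-155) and 167 (empty vector) (log2 ratio −0.91, local SD 0.31), while Ric1, the other subunit, was at 0.02. On the higher side Dennd2d had 257 in the miR-155 array and 140 in the empty-vector array (log2 ratio 0.87, local SD 0.28), but −0.20 in a further probeset. Dennd1a read 0.60 (local SD 0.46), and Mon1b, of the Rab7 GEF, had 48.4 in the miR-155 array and 25.6, just below the floor, in the empty-vector array.

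Of 26 kept effectors, 2 read at least 1.5-fold lower (7.69%, against 5.99% of all genes kept) and 0 higher (against 5.32%), with a median of −0.03. Rilpl1, related to the Rab7 effector RILP, had 53.6 in the miR-155 array and 154 in the empty-vector array (2.88-fold lower, log2 ratio −1.53, local SD 0.36), while a further probeset above the floor read 0.01. Another probeset of Rilpl1 had 17.5, below the floor, in the miR-155 array and 76.2 in the empty-vector array. Rab11fip2, which links Rab11 to myosin Vb, had 51.4 (miR-155) and 94.9 (empty vector) (log2 ratio −0.89, local SD 0.40). The early endosomal tether Eea1 was at −0.13, and Vps39 and Vps41 of the tether of late endosomes were at −0.35 and 0.07. The 5 kept Rab GAPs with other names were all within 1.5-fold, as were 8068 of the 9097 genes kept. They ran from −0.57 for Evi5, with −0.32 in a further probeset, to 0.45 for Rab3gap2, with 0.32 in a further probeset. Their median of 0.20 was the value of Rab3gap1 (local SD 0.36). Evi5 and Usp6nl (−0.35) read below 0, and Rabgap1 (0.26) and Rab3gap2 above it. With 5 genes this median cannot be set against that of the Tbc1d and Sgsm genes. The 6 kept genes of the Rab-like list, which includes Ran, lay between −0.19 and 0.08.

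**Figure D5:**
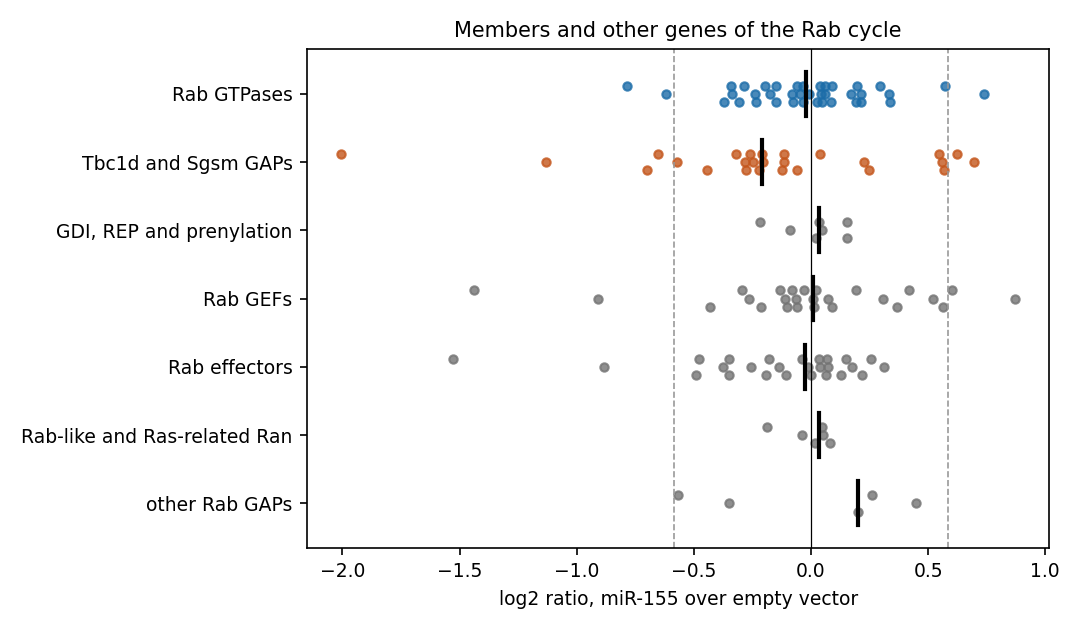
Log2 ratio of the miR-155 over the empty-vector signal for the kept genes of each part of the Rab cycle with both readings above the floor, 1 point per gene, with a black bar at the median of all kept genes of the list and dashed lines at 1.5-fold. The bar of the Tbc1d and Sgsm GAPs lies at −0.21 and that of the GTPases at −0.02. The bar of the other Rab GAPs, from only 5 kept genes, lies at 0.20.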

How the data were processed

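Total RNA of 2 pools, each of 5 clones, was biotin-labelled and hybridised to 1 array each, per the labels' protocols. The authors deposited 1 linear intensity per probeset and array. Its summarisation, background correction and scaling were not given in the sources used here. Median signals were 14.1 (miR-155) and 15.4 (empty vector) over 45101 probesets. The number of arrays limits all precision. Probesets were named through the platform annotation; 64 control probesets were left out, and 34945 had 1 symbol, 932 several and 9160 none. All 93 member symbols matched RefSeq GRCm38.p6 by Entrez identifier. Ratios were computed from the deposited signals with no offset (Python 3.11.15, numpy 2.4.6, pandas 2.3.3), and calculations were tested on simulated data. No test was possible, so counts past 1.5-fold and medians are descriptions. Named were all members, pathway genes past 1.5-fold (or the largest ratios of a list with none) and the listed pairs. Some further pathway genes were picked with their values in view. Members and lists were chosen with earlier results of these data known. Alternatives covered the filter, offset, scaling, probeset choice and low readings.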

Additional observations from a re-analysis of the deposited data

How the results depend on the processing

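No paired analysis was possible because each arm had 1 array, and for the same reason no replicate could be left out. Counts at 1.5-fold moved with the filter, the offset, the scaling and the use of plain probesets, and less with averaged probesets and raised readings. They are given as GTPases higher, GTPases lower, GAPs higher and GAPs lower, and were 2, 3, 2 and 4 as reported. Beside them stand the percentages of all genes higher and lower in the same setting, 5.32% and 5.99% as reported. With a filter at the upper 25% of signal they were 0, 2, 0 and 1 (26 GTPases and 4 GAPs kept), against 2.42% and 2.09%. They were 9, 6, 5 and 4 with no filter (59 GTPases and 34 GAPs), against 17.1% and 21.2%. With an offset of 50 they were 1, 1, 0 and 3, against 2.15% and 2.07%. They were 4, 2, 5 and 4 with the median ratio of genes kept set to 0, against 6.19% and 5.1%. With the medians of all probesets set equal they were 4, 2, 5 and 2, against 7.64% and 4.13%. Quantile normalisation gave 4, 2, 5 and 4, against 6.25% and 5.11%. Averaged probesets gave 3, 4, 2 and 3 (41 GTPases and 24 GAPs kept), against 7.65% and 10%. Plain probesets alone gave 4, 3, 1 and 3 (38 GTPases and 25 GAPs kept), against 6.18% and 7.64%. With readings raised to the floor they were 2, 2, 2 and 4, against 5.05% and 5.62%. Setting the medians of all probesets equal turned the median ratio of all genes kept to 0.07, that of the GTPases to 0.10 and that of the GAPs to −0.087. With averaged probesets the GAP median lay closest to that of the GTPases (difference −0.082). In the other settings that difference stayed between −0.19 and −0.12. Of 90 recomputed ratios for the 11 members past 1.5-fold, 81 moved by less than the local SD, 8 moved by more and 1 changed sign. That was Tbc1d14, at 0.073 with plain probesets, which leaves only its dimmest probeset. Many of the 90 could not move. A changed filter leaves a ratio as it is, and so does averaging for a gene with 1 probeset. Raised readings alter only genes with a reading below the floor. The count of 81 is therefore no measure of robustness. Sgsm1 was at −0.19 with plain probesets and −0.61 with averaged ones. Dim members, and any with 1 probeset, are the least certain.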
